A study of Mus musculus with 54 samples.

Results

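The Wnt genes described here are the secreted Wnt ligands, the genes for their release, their receptors, their secreted inhibitors, the R-spondin and Lgr axis that tunes receptor levels, and the intracellular Axin and Tcf/Lef genes. They were chosen by a rule on gene symbols and numbered 51 of the 16772 genes in the deposited table. By role they were 15 ligands, 2 secretion genes (Porcn and Wls), 12 receptors and co-receptors (10 Fzd genes, Lrp5 and Lrp6), 8 secreted inhibitors, 8 genes of the R-spondin axis and 6 intracellular genes. Expression was measured by RNA sequencing of ribosomal-RNA-depleted libraries of mouse prostate tumour tissue, in 54 libraries from 48 animals and 11 groups. The animals of the DKO, DKO_EE and DKO_EP models were sampled intact at 12 weeks (4 of each), intact at endstage (3 DKO at 35 to 46 weeks, 8 DKO_EE at 28 to 42 weeks, 3 DKO_EP at 39 to 52 weeks), or at endstage after castration at 12 weeks (4 DKO at 39 to 99 weeks, 5 DKO_EE at 35 to 59 weeks, 5 DKO_EP at 34 to 37 weeks). Castrated TKO animals received vehicle (4, at 15 to 19 weeks) or the Ezh2 inhibitor CPI1688 (4, at 18 to 19 weeks). DKO_EE and DKO_EP are DKO models with Ezh2 deletions per the series description, and Ezh2 is the catalytic subunit of Polycomb repressive complex 2. The labels name neither the alleles behind DKO, TKO, EE and EP nor a promoter that drives the deletions.

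Wnt proteins are lipid-modified by Porcn, carried to the cell surface by Wls, and bind Fzd receptors together with Lrp5 or Lrp6. In the canonical branch this stops the Axin complex from marking beta-catenin for degradation, and beta-catenin then acts with Tcf/Lef factors on targets that include Axin2, Lgr5, Znrf3, Rnf43 and Notum, several of which feed back on the pathway. Rnf43 and Znrf3 remove Fzd receptors from the surface, and R-spondins bound to Lgr4, Lgr5 or Lgr6 block that removal. In the prostate, Wnt signals pass between stroma and epithelium during growth of the gland.

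The promoters of Wnt3, Axin2 and Sfrp5 are printed as examples of the genes called higher in castrated DKO_EE than DKO tumours, described further down. Lgr5, also called higher there, had no promoter entry. Polycomb binding at these promoters was not tested. Each sequence holds the 250 bases before the annotated gene start (RefSeq, GRCm38.p6), read 5′ to 3′ on the gene's strand, with each CpG in capitals. The coordinates are chr11:103773925-103774174 on the plus strand for Wnt3, chr11:108920099-108920348 on the plus strand for Axin2, and chr19:42202253-42202502 on the minus strand for Sfrp5.
Wnt3: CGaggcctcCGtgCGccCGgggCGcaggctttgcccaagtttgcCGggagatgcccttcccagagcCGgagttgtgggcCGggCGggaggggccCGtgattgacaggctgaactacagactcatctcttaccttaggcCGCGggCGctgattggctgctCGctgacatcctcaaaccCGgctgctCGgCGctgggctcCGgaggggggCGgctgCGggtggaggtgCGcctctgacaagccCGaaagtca
Axin2: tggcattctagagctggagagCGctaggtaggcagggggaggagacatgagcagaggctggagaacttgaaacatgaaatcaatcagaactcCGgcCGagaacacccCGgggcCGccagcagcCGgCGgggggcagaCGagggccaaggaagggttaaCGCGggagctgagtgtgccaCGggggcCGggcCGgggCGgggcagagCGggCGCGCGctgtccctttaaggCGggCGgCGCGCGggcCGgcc
Sfrp5: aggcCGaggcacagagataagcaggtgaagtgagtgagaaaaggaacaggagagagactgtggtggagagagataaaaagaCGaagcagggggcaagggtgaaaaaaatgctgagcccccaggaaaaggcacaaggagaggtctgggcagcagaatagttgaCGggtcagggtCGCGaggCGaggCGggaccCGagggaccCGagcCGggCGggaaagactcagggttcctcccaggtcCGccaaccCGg
These windows held 22 CpG in Wnt3, 24 in Axin2 and 13 in Sfrp5. Fewer CpG were present in 85.2%, 88.0% and 68.5% of the 32851 promoters of the table, respectively. The table held 41 promoter entries for 32 of the 51 Wnt genes, with a median of 17 CpG per window against 6 over all promoters. The Tcf/Lef motif, searched as CTTTGAA or CTTTGAT on both strands (the motifs share their first 6 letters), was found in 1 entry each of Wnt5b and Wnt11. That is 4.88% of the Wnt gene entries, against 7.48% of all promoters.

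Library depth, summed over the tabulated genes, was 3687048 to 9741808 reads. Lars2 took over 10% of the reads in 5 of 12 intact endstage DKO_EE libraries and in 5 of 5 DKO_EP libraries, and Ttn at least 1% in 2 DKO and 2 DKO_EP libraries at 12 weeks. Some animals stood apart from their group, and animals are numbered within their group. Castrated DKO animal 2 (99 weeks) had a summed level of 6 basal epithelial markers of 15.81 on the log2 scale, against 9.96 to 10.54 in the other 3, and of 8 neuroendocrine markers of 8.15, against 14.02 to 14.17. TKO vehicle animal 1 had a fibroblast sum of 18.40, the highest of its group. Ezh2 itself was detected in every group, and its mean log2 level in DKO_EE was below that in DKO at 12 weeks (7.60 and 8.40), intact endstage (8.28 and 9.61) and castrated endstage (8.46 and 9.36). Pbsn, a marker of androgen-responsive luminal cells, was at 0 reads in every library of the intact and castrated endstage groups of all 3 DKO models.

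Levels between genes were compared as normalized count per kilobase of exon. Averaged over all animals, the Wnt genes covered nearly the whole range of the transcriptome. Lgr4, a receptor for R-spondins, was highest with 230.9 per kb, above 91.8% of all genes. Sfrp1, a secreted inhibitor that binds Wnt proteins, followed with 209.3 per kb, and the co-receptor Lrp6 with 168.3 per kb. Axin1, the scaffold of the beta-catenin destruction complex, was at 144.7 per kb and Wls at 123.2 per kb. Wnt9b was lowest with 0.253 per kb, above 1.07% of all genes. The order changed between groups. In 12-week DKO prostates Lgr4 (504.6 per kb) and Sfrp1 (332.4 per kb) led, whereas in castrated DKO_EE tumours Sfrp5, another secreted Sfrp, ranked first with 301.4 per kb. Sfrp5 was at 14.3 per kb in castrated DKO tumours. Wnt3 ranked last of the 51 in 12-week DKO prostates, at 0.0 per kb, and 17th in castrated DKO_EE tumours at 15.2 per kb. 

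**Figure D1:**
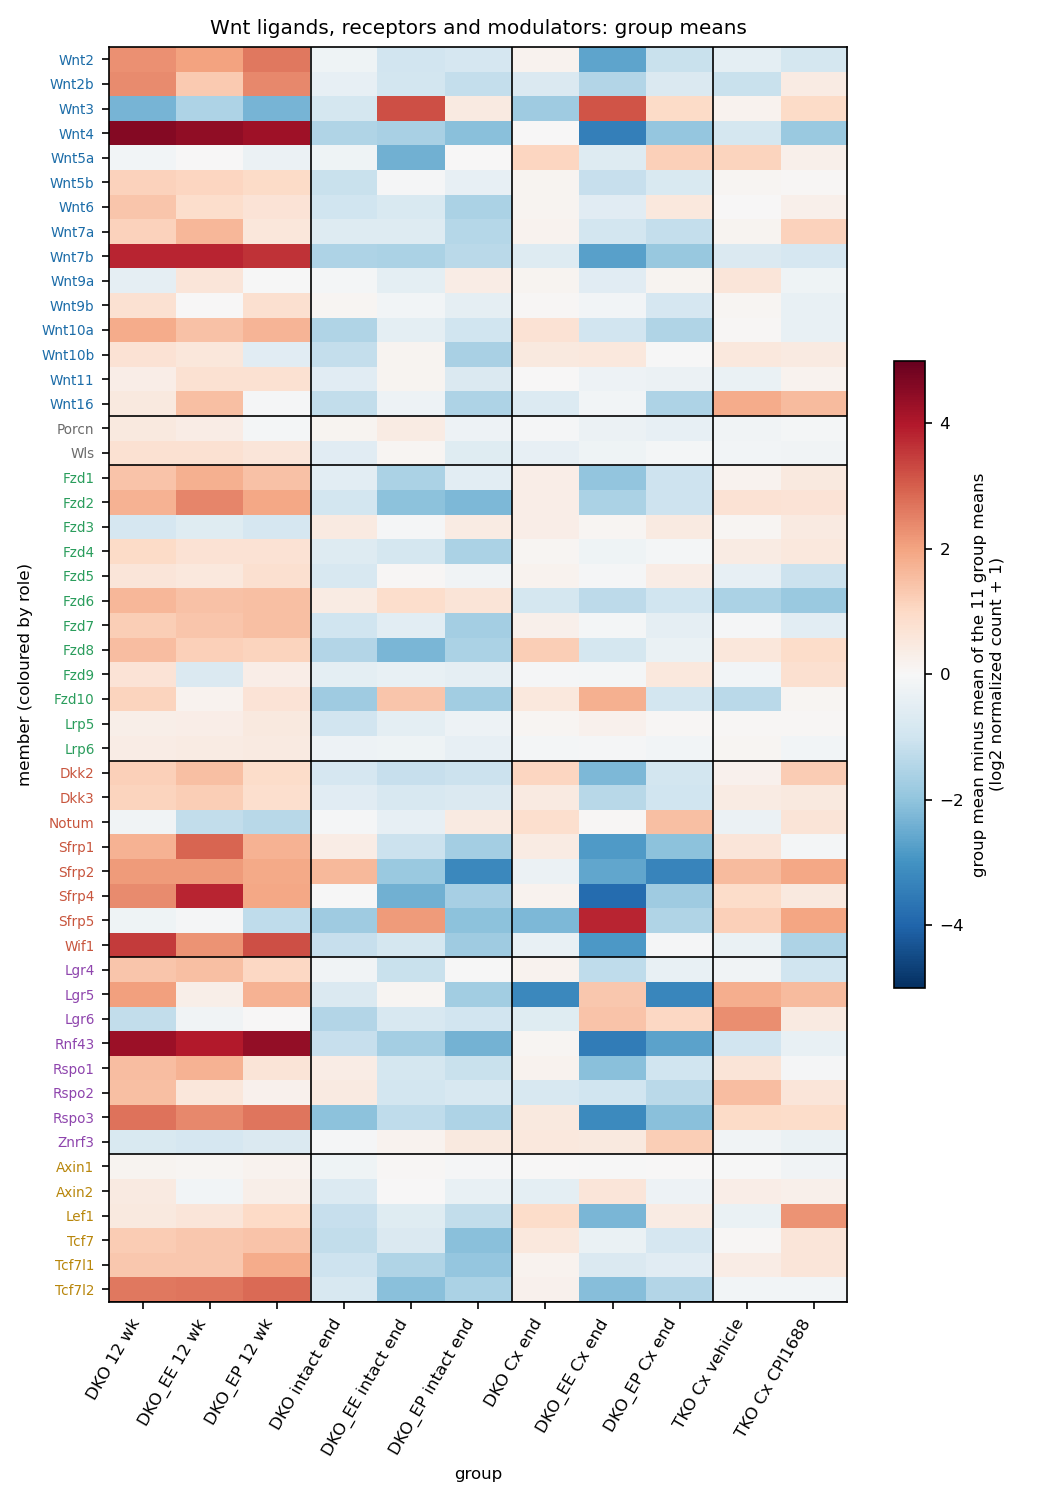
Mean log2 level of each of the 51 Wnt genes (rows, ordered and coloured by role) in the 11 groups (columns, Cx for castrated), shown as the difference from the mean of the 11 group means of that gene. The 3 columns at 12 weeks are high for most ligands, receptors and inhibitors, while Wnt3 is high in the DKO_EE endstage columns.

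The passage from 12 weeks to endstage in intact animals was compared within each genotype, on log2 normalized counts with limma. A gene counts as called where its p, adjusted by Benjamini-Hochberg over all genes, was under 0.05. Most called Wnt genes fell. In DKO, 1 of 51 rose and 24 fell, together 49% of the Wnt genes, beside 36.7% of all genes called, 18% higher and 18.7% lower. In DKO_EE, 2 rose and 29 fell (60.8%), beside 50.6% of all genes called, 23.6% higher and 27% lower. In DKO_EP, 3 rose and 27 fell (58.8%), beside 44.2% of all genes called, 21.3% higher and 22.9% lower. For the 51 genes the median log2 change was -1.64 (DKO), -1.65 (DKO_EE) and -1.79 (DKO_EP), beside -0.04, -0.07 and -0.06 over all genes. These groups differ in age and in tissue makeup, and in bulk tissue fewer cells of a type and less RNA per cell cannot be told apart. Lars2 reads were 14.2% to 21.6% in the intact endstage DKO_EP libraries and 0.0017% to 0.0022% in those at 12 weeks. Stage and this library difference cannot be told apart in DKO_EP. The summed log2 level of the 6 basal markers went from 11.62 to 13.09 at 12 weeks to 10.73 to 10.87 at endstage in DKO, and that of the 8 smooth muscle markers from 11.81 to 14.18 to 9.57 to 11.70. In DKO_EE the basal sums were 11.92 to 13.57 at 12 weeks and 10.44 to 11.25 at endstage, and in DKO_EP 11.63 to 14.06 and 9.96 to 10.89. The 8 neuroendocrine markers went the other way, from 7.13 to 10.22 to 13.52 to 13.84 in DKO. The neuroendocrine sums were 8.47 to 11.42 and 13.78 to 14.44 in DKO_EE, and 7.21 to 9.89 and 13.98 to 14.13 in DKO_EP. Fibroblast sums at 12 weeks and endstage were 14.36 to 15.28 and 12.66 to 15.55 in DKO, 14.52 to 16.73 and 10.97 to 15.34 in DKO_EE (means 15.56 and 13.23), and 14.30 to 16.23 and 13.69 to 14.21 in DKO_EP. They overlapped in DKO and DKO_EE and not in DKO_EP. Sums of 5 neuron markers went from 5.71 to 10.25 to 12.52 to 13.54 in DKO and did not overlap in any genotype, and sums of 7 endothelial markers were higher at endstage without overlap in DKO and DKO_EP. Sums of 6 skeletal muscle markers in DKO were 13.36 to 18.02 at 12 weeks and 7.05 to 10.89 at endstage. They overlapped in DKO_EE and DKO_EP, while smooth muscle sums overlapped in DKO_EE and not in DKO_EP. Schwann cell and seminal vesicle sums in DKO were also lower at endstage without overlap. The part of all these markers in the result was not tested.

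Among the ligands, 6 of 15 fell in DKO, 8 in DKO_EE and 6 in DKO_EP, beside 18.7%, 27% and 22.9% of all genes. Wnt4 and Wnt7b, epithelial ligands of developing ducts, were among the ligands with the largest falls. Wnt4 had log2 levels of 9.16, 9.50, 10.09 and 9.34 in the 12-week DKO animals and 4.88, 5.40 and 0 at endstage. The log2 level fell by 6.10 in DKO (SE 1.51, adjusted p = 0.0016, limma), by 6.06 (SE 1.21) in DKO_EE and by 6.32 (SE 1.51) in DKO_EP. The 12-week and endstage animals did not overlap in any of the 3 genotypes. Wnt7b had log2 levels of 8.57, 8.95, 8.90 and 9.16 in the 12-week DKO animals and 5.59, 5.01 and 0 at endstage. Its change was -5.36 in DKO (SE 1.48), -5.39 in DKO_EE (SE 1.19) and -4.96 in DKO_EP (SE 1.48). The 0 values of both ligands belonged to the same animal, intact DKO animal 3 (35 weeks). Wnt10a, which lies beside Wnt6 on chromosome 1 (GRCm38, 74791516 to 74804179 and 74771892 to 74785322), was listed at 0 in all 3 endstage DKO animals. With 33 reads summed over the 12-week animals it was at least 9.24-fold lower, against a floor of 3 reads over the group. Wnt6 fell from 33 reads to 3 in DKO, a ratio of 9.24 with a 95% counting interval of 2.90 to 47.1 that covers counting error only. In DKO_EP, Wnt6 went from 18 reads to 1 and Wnt10a from 36 reads to 1. Wnt2b fell in all 3 genotypes, by 2.76 in DKO, 2.20 in DKO_EE and 3.60 in DKO_EP on the log2 scale. Wnt5a, the main ligand of the beta-catenin-independent branch, fell in DKO_EE by 2.45 (SE 0.61, adjusted p = 0.00112, limma), and its change in DKO was -0.06 with a 95% interval of -1.61 to 1.48. The test of the difference between those 2 changes did not pass (-2.39, adjusted p = 0.379, limma). Wnt2 and Wnt9a were also lower in DKO_EE, Wnt2 in DKO_EP and Wnt5b in DKO. Wnt11 was not called in any genotype.

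Wnt3, a canonical ligand, was the one ligand called higher. It lies on chromosome 11 from 103774150 to 103817957 on the plus strand (GRCm38), next to Wnt9b at 103727364 to 103749821. All 8 DKO and DKO_EP animals at 12 weeks were at 0 reads of Wnt3, which allows a rate of up to 0.109 RPM (reads scaled to library depth) in DKO and 0.096 RPM in DKO_EP, for counting error only. The 12-week DKO_EE animals were at log2 levels of 0, 1.04, 0 and 2.12. At endstage the 8 DKO_EE animals ranged from 4.23 over a median of 5.70 to 7.36, so that every endstage animal was above every 12-week animal. The log2 change in DKO_EE was 4.79 (SE 0.65, adjusted p = 3.17e-07, limma). In DKO_EP the endstage levels were 4.01, 2.80 and 1.52, from 23 reads in all, which is at least 10.8-fold higher than the floor at 12 weeks (adjusted p = 0.00558, limma). In DKO they were 2.19, 2.22 and 0, and the change was not called (1.47, adjusted p = 0.158, limma). The difference between the DKO_EE and DKO changes was 3.32 (95% interval 1.20 to 5.43), which did not pass (adjusted p = 0.215, limma). The neighbour Wnt9b was not called in any comparison.

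**Figure D2:**
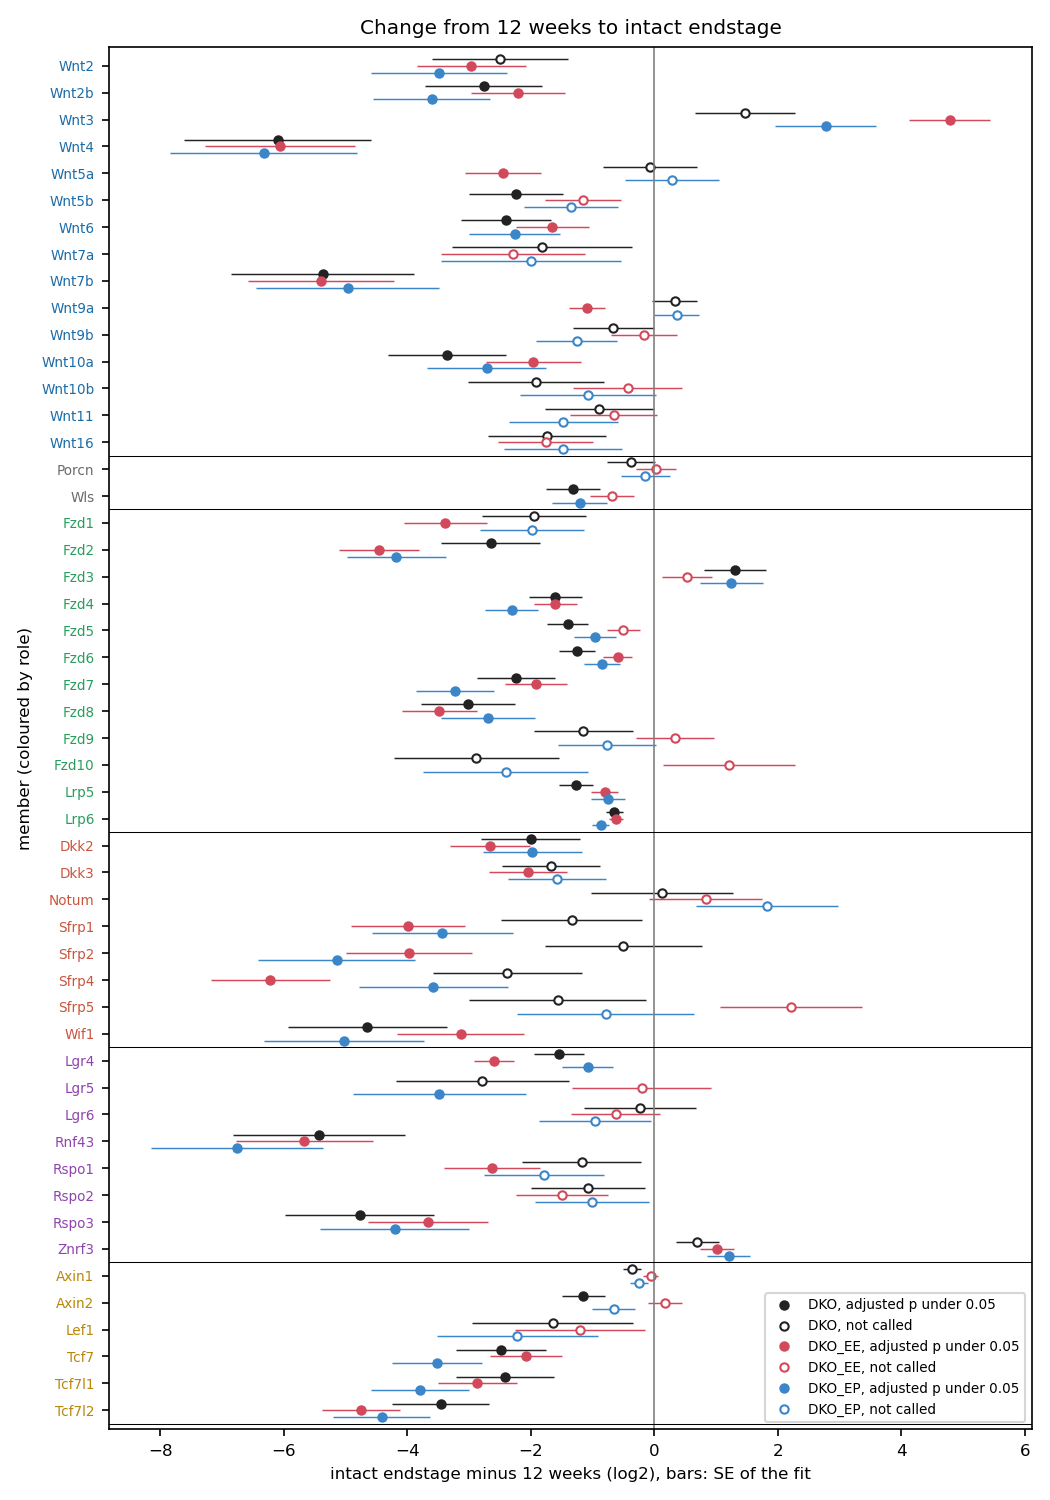
Log2 change of each Wnt gene from 12 weeks to intact endstage (horizontal axis, bars of 1 SE) in DKO, DKO_EE and DKO_EP, with filled points for changes called at an adjusted p under 0.05. Most filled points lie below 0, and Wnt3, Znrf3 and Fzd3 hold the filled points above 0.

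Of the 12 receptors, 8 fell in each genotype, beside 18.7% (DKO), 27% (DKO_EE) and 22.9% (DKO_EP) of all genes. Fzd2, Fzd4, Fzd6, Fzd7, Fzd8, Lrp5 and Lrp6 fell in all 3. The DKO_EE call of Fzd6 (adjusted p = 0.0364, limma) was lost without intact endstage animal 7 or 12-week animal 1, 2 or 4. It was also lost under 3 of 9 other alternatives. Lrp6 changed little but evenly. The 12-week DKO animals were at log2 levels of 11.55, 11.67, 11.49 and 11.36 and the endstage animals at 10.88, 10.86 and 10.89, a fall of 0.64 (SE 0.14, adjusted p = 0.000458, limma). Larger falls were those of Fzd8, by 3.02 in DKO (SE 0.76), 3.48 in DKO_EE (SE 0.61) and 2.70 in DKO_EP (SE 0.76). Fzd2 fell by 2.64 in DKO, 4.46 in DKO_EE and 4.17 in DKO_EP. In DKO_EE its 12-week log2 levels of 7.94, 6.84, 7.09 and 7.69 all lay above the highest of the 8 endstage animals, 4.45. Lrp5 fell by 1.26 in DKO (SE 0.28, adjusted p = 0.000433, limma), 0.80 in DKO_EE and 0.74 in DKO_EP. Fzd3, a receptor of planar cell polarity, was the exception. Its log2 levels rose from 8.59, 8.81, 8.78 and 9.25 to 10.11, 10.50 and 9.89 in DKO, by 1.31 (SE 0.51, adjusted p = 0.0393, limma), and by 1.25 in DKO_EP (SE 0.51, adjusted p = 0.042). The DKO call of Fzd3 was lost without any 1 of the 3 intact endstage animals or without 12-week animal 1, 2 or 3. It was also lost with only libraries under 1% Ttn. In DKO_EP the Fzd3 call was likewise not kept in every fit that left out an animal. Fzd5 fell in DKO and DKO_EP and Fzd1 in DKO_EE. Of the 2 secretion genes, Wls fell in DKO (-1.31) and DKO_EP (-1.21).

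Of the 8 secreted inhibitors, 2 fell in DKO, 25% beside 18.7% of all genes called lower. Counting both directions, that DKO share was below the 36.7% of all genes called. In DKO_EE 6 fell (75%, beside 27% of all genes) and in DKO_EP 5 (62.5%, beside 22.9%). Wif1, which binds Wnt proteins, fell in all 3 genotypes, by 4.65, 3.13 and 5.02 on the log2 scale. Dkk2, a ligand of Lrp co-receptors, also fell in all 3. Its DKO call (adjusted p = 0.0471, limma) was lost without intact endstage animal 1 or 3 or 12-week animal 2 or 3. It was also lost under 4 of 8 other alternatives. Sfrp4 in DKO_EE stood at 12-week log2 levels of 9.66, 7.31, 8.34 and 9.86 and at endstage between 0.47 and 6.56 with a median of 2.08, a fall of 6.22 (SE 0.97, adjusted p = 2.45e-06, limma). Sfrp1 and Sfrp2 fell in DKO_EE by 3.99 and 3.98 and in DKO_EP by 3.43 and 5.14. In DKO their changes of -1.34 and -0.50 were not called. Sfrp4 also fell in DKO_EP, by 3.58. The fibroblast sums given above were lower on average in DKO_EE and without overlap in DKO_EP. Dkk3 fell in DKO_EE (-2.04) and was at -1.68 in DKO (adjusted p = 0.0956, limma). 

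In the R-spondin axis, Lgr4, Rnf43 and Rspo3 fell in all 3 genotypes while Znrf3, the ligase related to Rnf43, moved the other way. Rnf43 had log2 levels of 7.96, 8.98, 8.94 and 9.20 in 12-week DKO animals and 5.64, 3.47 and 0.92 at endstage. It fell by 5.43 in DKO (SE 1.39), 5.66 in DKO_EE (SE 1.12) and 6.75 in DKO_EP (SE 1.39). Znrf3 rose in DKO_EE by 1.02 (SE 0.28, adjusted p = 0.00267, limma) and in DKO_EP by 1.20 (SE 0.35, adjusted p = 0.00501). In DKO its levels were 8.43, 8.71, 8.54 and 8.39 at 12 weeks and 9.24, 9.24 and 9.17 at endstage, without overlap, yet the change of 0.70 was not called (adjusted p = 0.113, limma). Rspo3, a secreted agonist made by stroma, fell by 4.76, 3.66 and 4.20. Lgr4 fell by 2.59 in DKO_EE (SE 0.33, adjusted p = 8.45e-08, limma), from 11.34 to 12.05 at 12 weeks to 8.57 to 9.78 at endstage. Lgr5, a target and R-spondin receptor, was called lower in DKO_EP (-3.48, adjusted p = 0.0419, limma), and its change in DKO_EE was -0.20 with a 95% interval of -2.48 to 2.08. Rspo1 fell in DKO_EE.

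Tcf7, Tcf7l1 and Tcf7l2, 3 of the 4 Tcf/Lef genes that bind beta-catenin, fell in every genotype. Tcf7l2 went from log2 levels of 9.48, 9.48, 9.80 and 9.56 to 6.08, 5.52 and 6.78 in DKO, by 3.45 (SE 0.78, adjusted p = 0.000648, limma). In DKO_EE it fell by 4.75 (SE 0.63) from 9.12 to 10.17 at 12 weeks to a median of 4.81 at endstage, and in DKO_EP by 4.41 (SE 0.78). The fourth, Lef1, was at -1.64, -1.20 and -2.22 and was not called. Axin2, a feedback target of beta-catenin, fell by 1.15 in DKO (SE 0.35, adjusted p = 0.00847, limma) and was at 0.18 in DKO_EE (95% interval -0.39 to 0.74). The difference between those changes, 1.32, did not pass (adjusted p = 0.26, limma). Notum was not called. In all, 20 Wnt genes were called lower in all 3 genotypes, as were 12.4% of all genes, and none was called higher in all 3, as were 13.3% of all genes. Some of these calls were fragile. Of the called Wnt genes, 14 of 25 in DKO, 27 of 31 in DKO_EE and 17 of 30 in DKO_EP were kept without any one animal. The 3 genotypes do not share animals. None of the Wnt genes passed the test of a different change in DKO_EE or DKO_EP than in DKO by limma. Of all genes 0.125% and 0.00596% did, and limma-voom called 0 of the 51 in both. At an unadjusted p under 0.05 by limma were 9 and 1 of the 51. The share of all genes at that unadjusted threshold is not given here, so these counts cannot be set against it.

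**Figure D3:**
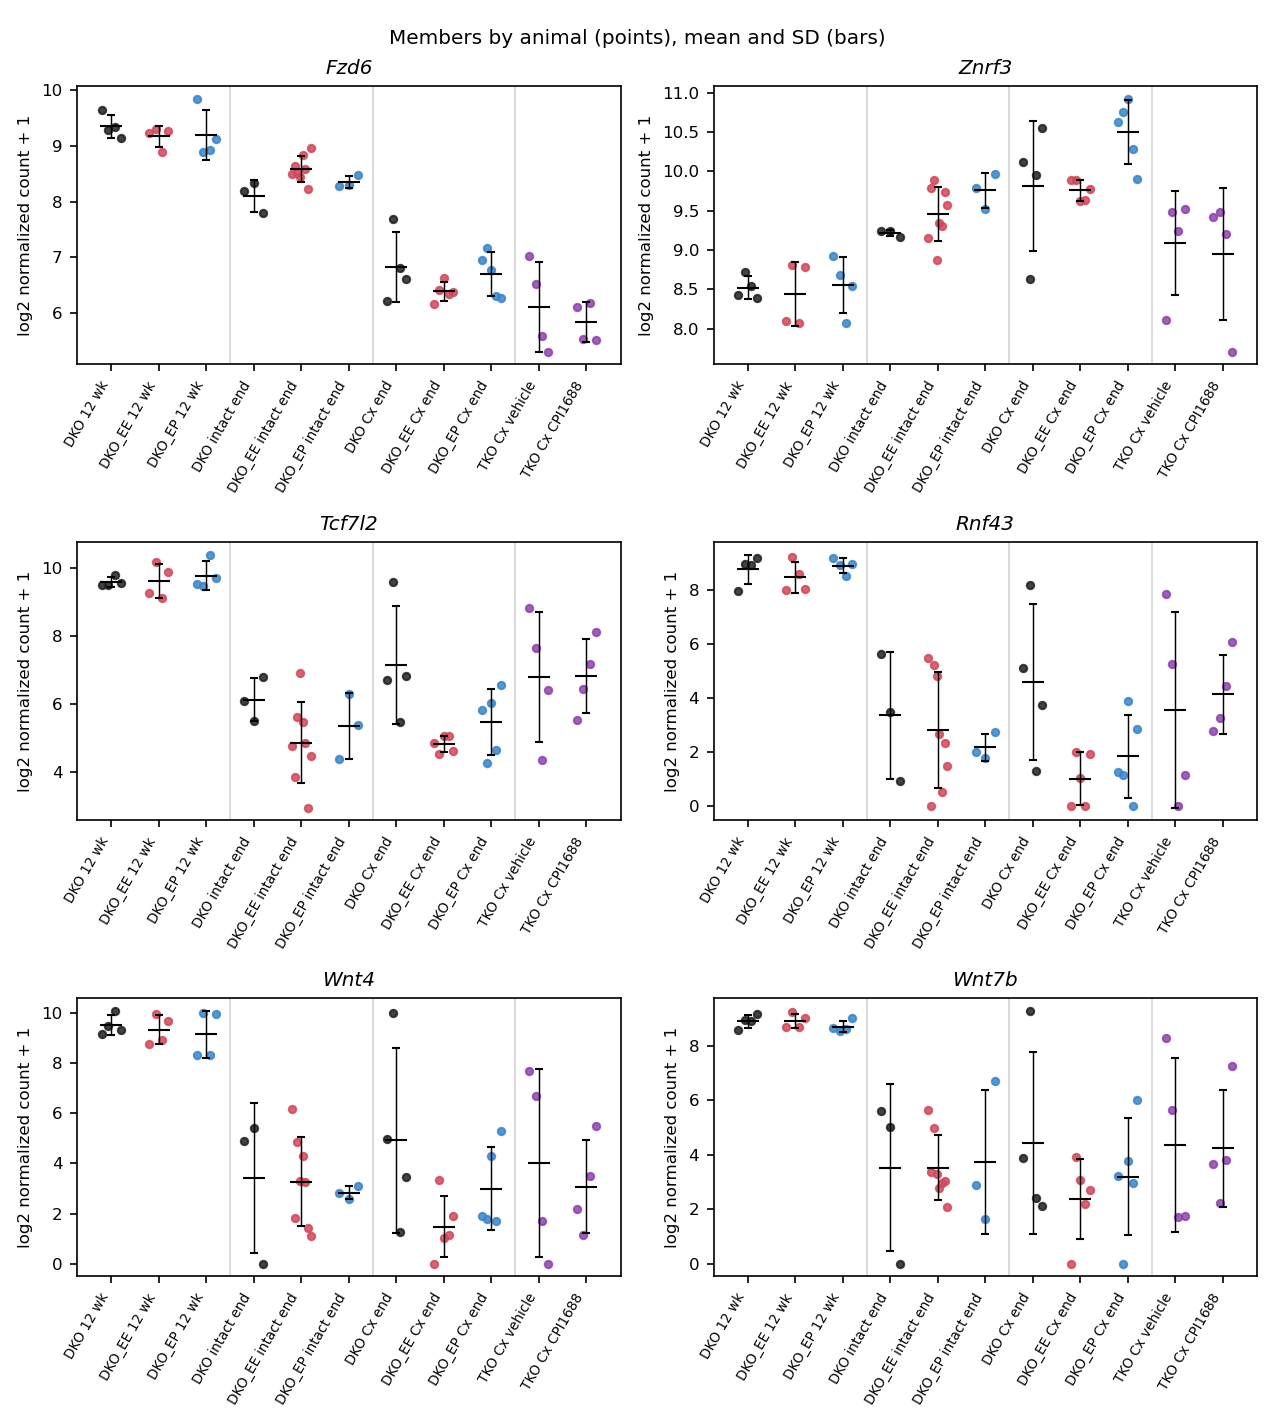
Log2 level of Fzd6, Znrf3, Tcf7l2, Rnf43, Wnt4 and Wnt7b in every animal (points) of the 11 groups, with the group mean and SD. Rnf43, Wnt4, Wnt7b and Tcf7l2 lie between 7.96 and 10.39 in all 12-week animals, and castrated DKO animal 2 lies at 9.99 for Wnt4 and 9.29 for Wnt7b, apart from its group.

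Of 69 other pathway genes (co-receptors, Dvl, destruction complex, Tle and Bcl9 genes, planar polarity genes), 9 rose and 19 fell in DKO, 11 and 24 in DKO_EE, and 11 and 24 in DKO_EP. These are 40.6%, 50.7% and 50.7% of the list, beside 36.7%, 50.6% and 44.2% of all genes. Celsr3, a planar polarity cadherin, rose in each, by 5.72, 4.71 and 6.98 on the log2 scale. Bcl9l, a co-activator of beta-catenin, fell by 3.53, 2.78 and 2.78, and Tle3, a co-repressor, by 1.84, 1.58 and 1.70. Of 20 beta-catenin targets outside the 51, 3 rose and 8 fell in DKO, and 3 rose and 10 fell in DKO_EE and in DKO_EP, which is 55%, 65% and 65% of that list. Sox9 fell most among those named, by 6.47, 7.70 and 8.36, and Prox1 rose by 5.003, 4.26 and 5.29. Myc fell by 2.52, 2.61 and 3.22. Without intact DKO animal 3, 16 Wnt genes were called in DKO in all against 25. With only libraries under 1% Ttn, 21 were called in DKO and 22 in DKO_EP. That limit leaves out 2 of the 4 libraries at 12 weeks in each of these genotypes. These fits hold fewer animals, and the shares of all genes called in them are not given here. The lower counts can therefore not be read as particular to the Wnt genes.

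Castrated endstage tumours were then compared with intact endstage tumours of the same genotype. Few Wnt genes changed, and the one that fell in all 3 genotypes was Fzd6, a receptor linked to planar polarity on chromosome 15 (GRCm38, 39006034 to 39038188, plus strand). In DKO, 3 of 51 were higher and 1 lower, 7.84% beside 13.9% of all genes, 7.01% higher and 6.93% lower. In DKO_EE, 3 were higher and 1 lower, 7.84% beside 16.5% of all genes, 8.3% higher and 8.19% lower. In DKO_EP, 2 were higher and 1 lower, 5.88% beside 9.87% of all genes, 4.89% higher and 4.98% lower. The intact DKO_EP libraries held 14.2% to 21.6% Lars2 reads and the castrated ones 0.0032% to 0.0048%. Castration and this library difference cannot be told apart in DKO_EP. The median log2 difference of the 51 was 0.78, -0.10 and 0.17, against -0.02, -0.03 and 0 over all genes. Fzd6 was at log2 levels of 8.19, 8.33 and 7.79 in intact DKO tumours and at 6.21, 7.68, 6.80 and 6.61 in castrated ones. The log2 difference was -1.28 (SE 0.30, adjusted p = 0.00167, limma), and the highest castrated value was that of animal 2. In DKO_EE the 8 intact tumours ranged from 8.22 over 8.55 to 8.96 and the castrated ones were at 6.16, 6.41, 6.63, 6.33 and 6.38. This difference of -2.20 had the smallest adjusted p of any Wnt gene in the study's comparisons (SE 0.22, adjusted p = 1.26e-10, limma). In DKO_EP the intact levels were 8.28, 8.31 and 8.47 and the castrated levels 6.96, 7.17, 6.77, 6.30 and 6.27 (-1.66, SE 0.28, adjusted p = 2.48e-05, limma). Intact and castrated animals did not overlap in any genotype, and 3.45% of all genes were likewise called lower in all 3. With only the 2 DKO groups in the fit, the DKO call was lost. Since Fzd6 had also fallen from 12 weeks, where its log2 level was 8.88 to 9.85, its levels stepped down from 12-week to intact endstage to castrated endstage groups. The TKO groups, castrated as well, were at 5.30 to 7.02 with vehicle and 5.52 to 6.18 with CPI1688.

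Among the higher genes, Lrp5 was called in DKO and DKO_EE. In DKO it went from log2 levels of 8.79, 8.49 and 8.47 intact to 9.38, 9.86, 9.54 and 9.70 castrated (1.03, SE 0.28, adjusted p = 0.00747, limma), without overlap. In DKO_EE the difference was 0.70 (SE 0.21, adjusted p = 0.0128), and the groups overlapped. Fzd8 in DKO went from 4.16, 4.13 and 3.03 to 6.21, 7.03, 6.71 and 5.98 (2.71, SE 0.76, adjusted p = 0.0117, limma), and Fzd5 was 0.99 higher (SE 0.34, adjusted p = 0.0428). In DKO_EE, Wnt5a was 1.80 higher (SE 0.57, adjusted p = 0.0235, limma), with castrated log2 levels of 8.82, 6.32, 7.74, 8.98 and 7.03 overlapping the intact range of 3.76 to 7.33, and was lost without intact DKO_EE animal 2 or castrated DKO_EE animal 1 or 4. Lgr6, the third R-spondin receptor, was 2.22 higher in DKO_EE (SE 0.68, adjusted p = 0.0173), and not called without castrated DKO_EE animal 4. In DKO_EP, Fzd4 was 1.47 higher (SE 0.41, adjusted p = 0.0132, limma) and lost its call without intact DKO_EP animal 3. Wnt6 rose from 1 read to 18, a ratio of 13.4 (95% counting interval 2.11 to 557), and was not called without any 1 of the 3 intact animals or without castrated animal 1, 2 or 4. Of the 4 DKO calls, Fzd6 and Lrp5 were kept without any one animal, and Fzd8 was lost without intact DKO animal 3. Fzd5 lost its call without any 1 of the 3 intact animals, without castrated animal 2 or 4, with 1 library per animal, and with only the 2 groups compared. Without castrated DKO animal 2, 4 Wnt genes were called. Of the 69 other pathway genes, 11 were higher and 0 lower in DKO, 16 and 1 in DKO_EE, and 13 and 1 in DKO_EP, which is 15.9%, 24.6% and 20.3% of the list beside the shares of all genes given above. Neuron marker sums were 7.20 to 11.79 castrated against 12.52 to 13.54 intact in DKO and 13.20 to 13.81 against 11.15 to 13.11 in DKO_EE, without overlap. Macrophage sums in DKO did not overlap either, at 11.19 to 12.06 castrated and 12.54 to 12.98 intact. Nor did seminal vesicle sums in DKO_EE, at 0 castrated and 2.12 to 8.19 intact. The part of these markers was not tested. Vangl2 and Dvl3, which act in planar polarity and as the Fzd adaptor, were higher in each, Vangl2 by 1.97, 2.12 and 1.80 and Dvl3 by 1.82, 1.61 and 1.39. Of the 20 other targets, 1 was higher in DKO (Ephb2), 3 in DKO_EE and 1 in DKO_EP (Jun), and none was called lower by limma. These are 5%, 15% and 5% of that list, each below the 13.9%, 16.5% and 9.87% of all genes called.

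DKO_EE and DKO_EP, the models with Ezh2 deletions, were compared with DKO within each setting, and castrated endstage tumours of DKO_EE gave the most called Wnt genes. There 4 of 51 were higher and 7 lower than in DKO, 21.6% beside 7.72% of all genes (3.42% higher and 4.3% lower), and limma-voom also called 11. The median difference of the 51 was -0.72 against -0.004 over all genes. By role, 1 ligand was higher and 1 lower, 1 receptor was lower, 1 inhibitor was higher and 3 lower, 1 gene of the R-spondin axis was higher and 2 lower, and 1 intracellular gene was higher. Wnt3, Sfrp5, Lgr5 and Axin2 were the higher genes, and Wnt2, Fzd1, Dkk2, Sfrp1, Sfrp4, Lgr4 and Rspo3 the lower ones.

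Wnt3 was at log2 levels of 1.17, 0, 0 and 1.08 in castrated DKO tumours and at 5.84, 4.59, 5.74, 5.02 and 6.17 in DKO_EE. The difference was 4.91 (SE 0.65, adjusted p = 0.0011, limma), and the groups did not overlap. In reads, 206 over the DKO_EE group faced 2 over the DKO group, a ratio of 72.3 with a 95% counting interval of 19.8 to 601. Castrated DKO_EP tumours lay between at 3.89, 3.43, 4.96, 2.98 and 1.16, where the difference from DKO was 2.72 (adjusted p = 0.138, limma) and that of DKO_EE from DKO_EP 2.19 (adjusted p = 0.103, limma). Sfrp5, on chromosome 19 from 42197971 to 42202252 (GRCm38, minus strand), was at 1.17, 1.25, 6.65 and 2.93 in DKO and at 8.99, 9.79, 9.02, 8.06 and 9.44 in DKO_EE (6.06, SE 1.08, adjusted p = 0.00607, limma). DKO animal 3 (84 weeks) was the high one of its group, and still below every DKO_EE animal. Lgr5 (chromosome 10, 115450311 to 115587780) was at 1.17, 3.41, 0 and 0 in DKO and at 8.32, 3.70, 4.31, 5.99 and 6.36 in DKO_EE (4.59, SE 1.08, adjusted p = 0.0225, limma). Axin2 (chromosome 11, 108920349 to 108950783) was at 7.50, 7.09, 7.41 and 6.73 in DKO and at 8.03, 8.27, 8.67, 7.82 and 8.52 in DKO_EE (1.08, SE 0.23, adjusted p = 0.0154, limma). For these genes too, every DKO_EE animal was above every DKO animal. Other genes regarded as beta-catenin targets did not follow. The differences of Notum (-0.79, 95% interval -3.05 to 1.47) and Znrf3 (-0.05, -0.72 to 0.62) were not called, nor were those of Rnf43 (-3.59, adjusted p = 0.0768, limma), Lef1 (-3.20, adjusted p = 0.107) and Tcf7 (-0.86, adjusted p = 0.387). Of the 20 targets outside the 51, none was higher and 5 were lower. These are 25% of that list, beside 7.72% of all genes called and 4.3% called lower. Among them were Sox9 (-4.04), Myc (-1.44), Ephb2 (-1.31) and Ephb3 (-0.92).

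Among the lower genes, Fzd1 had the smallest adjusted p and Sfrp4 the largest difference. Fzd1 was at log2 levels of 8.44, 9.60, 7.52 and 7.80 in DKO and at 6.03, 5.76, 6.04, 6.20 and 6.14 in DKO_EE (-2.31, SE 0.42, adjusted p = 0.00629, limma). Dkk2 was at 7.76, 9.07, 8.49 and 5.73 in DKO and at 3.18, 3.32, 5.62, 4.50 and 5.56 in DKO_EE (-3.33, SE 0.67, adjusted p = 0.0122, limma). Neither gene's groups overlapped, although DKO animal 4, at 5.73 for Dkk2, lay just above the highest DKO_EE animal at 5.62. Sfrp4 was at 7.39, 4.61, 1.95 and 6.70 in DKO and at 0 to 1.59 in DKO_EE (-4.05, SE 0.91), and Sfrp1 at 10.21, 8.42, 7.19 and 10.33 against 4.09 to 7.05 (-3.23, SE 0.85). Wnt2, a stromal ligand, had 42 reads over the DKO group and 2 over the DKO_EE group, a ratio of 29.9 (95% counting interval 7.78 to 255.0). Rspo3 was at 5.27, 5.70, 1.28 and 5.31 in DKO and at 1.0, 0, 2.64, 0 and 0 in DKO_EE (-3.66, SE 1.02, adjusted p = 0.044, limma), and was the one called gene whose groups overlapped, through DKO animal 3. Lgr4 differed by -1.45 (SE 0.40, adjusted p = 0.0431, limma). Dkk3 (-1.83, adjusted p = 0.0678) and Wnt5a (-1.68, adjusted p = 0.158) were not called, nor were Wnt7b (-2.05), Wnt11 (-0.29) and Sfrp2 (-2.31). The summed log2 level of 10 fibroblast markers was 12.54 to 13.81 in DKO_EE and 14.17 to 15.37 in DKO, without overlap and with no marker at 0 in every library. The sum of 5 neuron markers was 13.20 to 13.81 in DKO_EE and 7.20 to 11.79 in DKO, also without overlap, and 12.38 to 13.76 in DKO_EP. The other 11 marker lists overlapped between DKO_EE and DKO, and the part of the fibroblast and neuron markers in the higher and lower levels was not tested. Of the 69 other pathway genes, 5 were called (7.25%, beside 7.72% of all genes). Ror2, a receptor of Wnt5a, was higher by 2.32 (SE 0.41, adjusted p = 0.0059, limma) and Daam1 by 0.60. Tle4 (-2.64), Adgra2 (-1.97) and Celsr2 (-0.86) were lower.

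**Figure D4:**
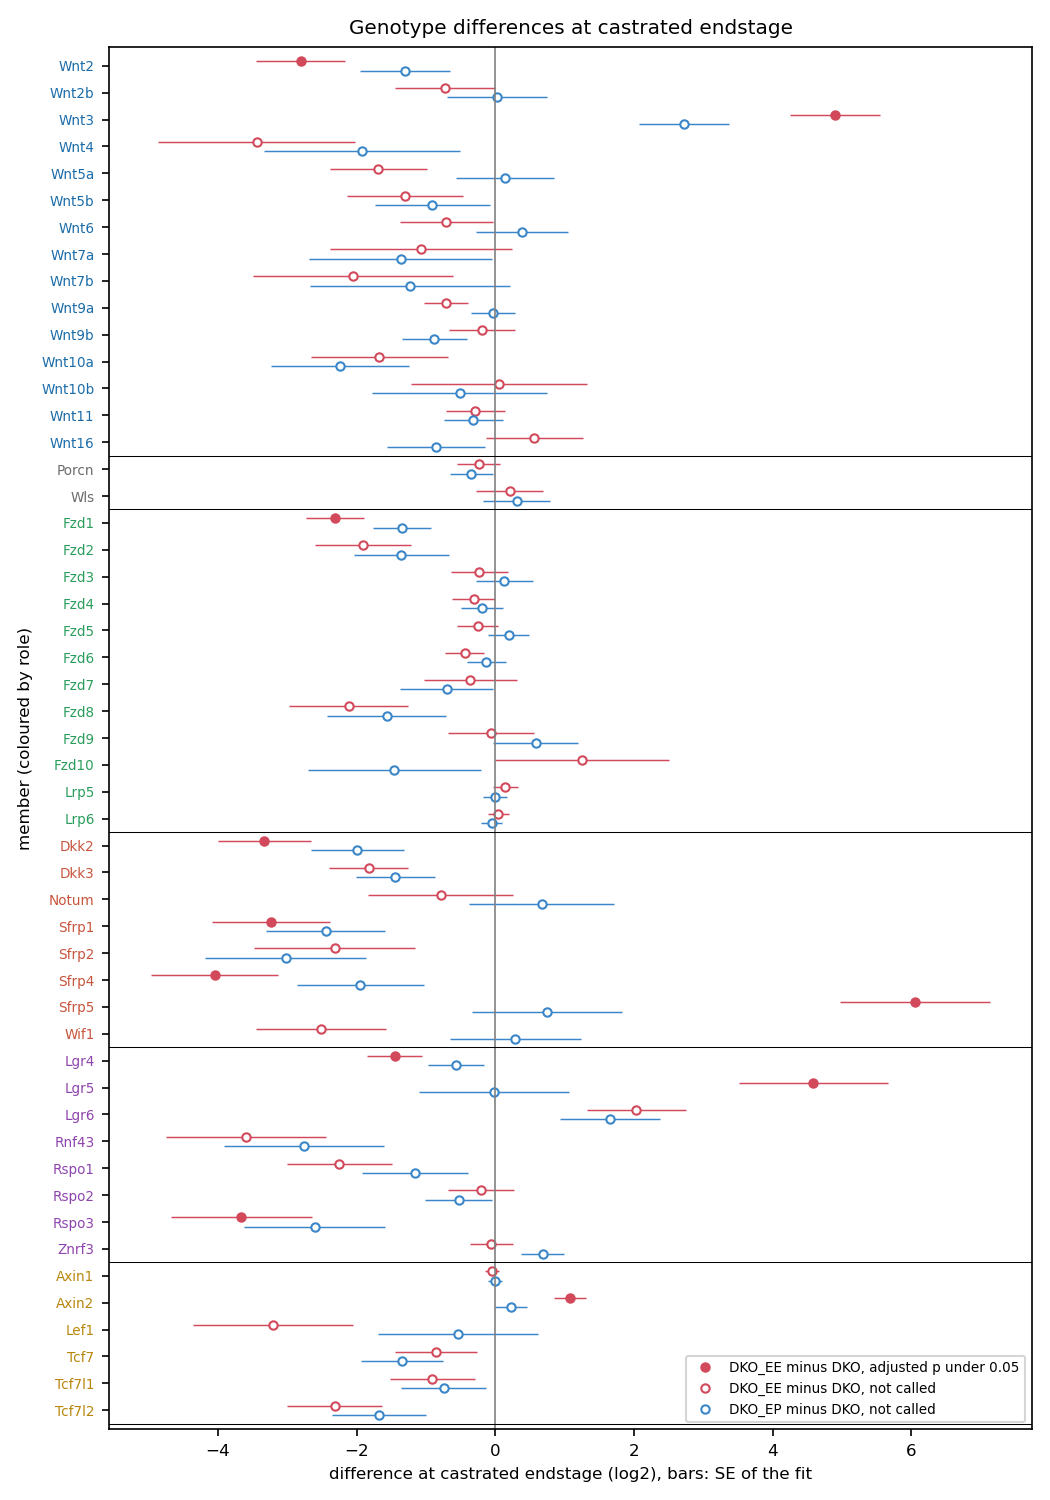
Log2 difference from DKO of each Wnt gene in castrated endstage tumours of DKO_EE and of DKO_EP (horizontal axis, bars of 1 SE), with filled points for the 11 genes called in DKO_EE and none in DKO_EP. Wnt3, Sfrp5, Lgr5 and Axin2 hold the filled points above 0.

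Of the 11 calls, Wnt3, Fzd1, Dkk2, Sfrp5 and Axin2 were kept without any one animal of these groups, and 6 to 17 genes were called across those fits. Without DKO animal 2, the animal that stood apart, 11 were called, 10 of them shared. With age as a covariate, 4 were called (Wnt2, Wnt3, Sfrp4 and Sfrp5), and the letters of the animal identifiers coincide with genotype here, so identifier series and genotype cannot be told apart.

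DKO_EP tumours at castrated endstage showed no called Wnt gene against DKO by limma, where 0.0302% of all genes were called, and 0 by limma-voom. At an unadjusted p under 0.05 by limma were 13 of the 51, beside 2423 of all 16558 genes. The median difference of the 51 was -0.54 against 0 over all genes. DKO_EE against DKO_EP gave 2 higher genes, Sfrp5 and Lgr5, and none lower, beside 1.7% of all genes (0.707% higher and 0.99% lower). Sfrp5 was at 3.59, 3.06, 1.73, 3.77 and 6.58 in DKO_EP, all below DKO_EE (5.31, SE 1.02, adjusted p = 0.0176, limma). Lgr5 was at 0, 1.78, 0, 0 and 3.86 in DKO_EP (4.61, SE 1.01, adjusted p = 0.0378, limma), where 1 DKO_EP animal reached into the DKO_EE range. Axin2 was 0.85 higher in DKO_EE without overlap and was not called (adjusted p = 0.0722, limma). Leaving out DKO_EP animal 2 or 3 removed both calls. The Lgr5 call was also lost without DKO_EP animal 1 or 4, without DKO_EE animal 1, 3, 4 or 5, with an offset of 10, with age as a covariate and by limma-voom. These contrasts share their animals, so the values stand side by side.

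**Figure D5:**
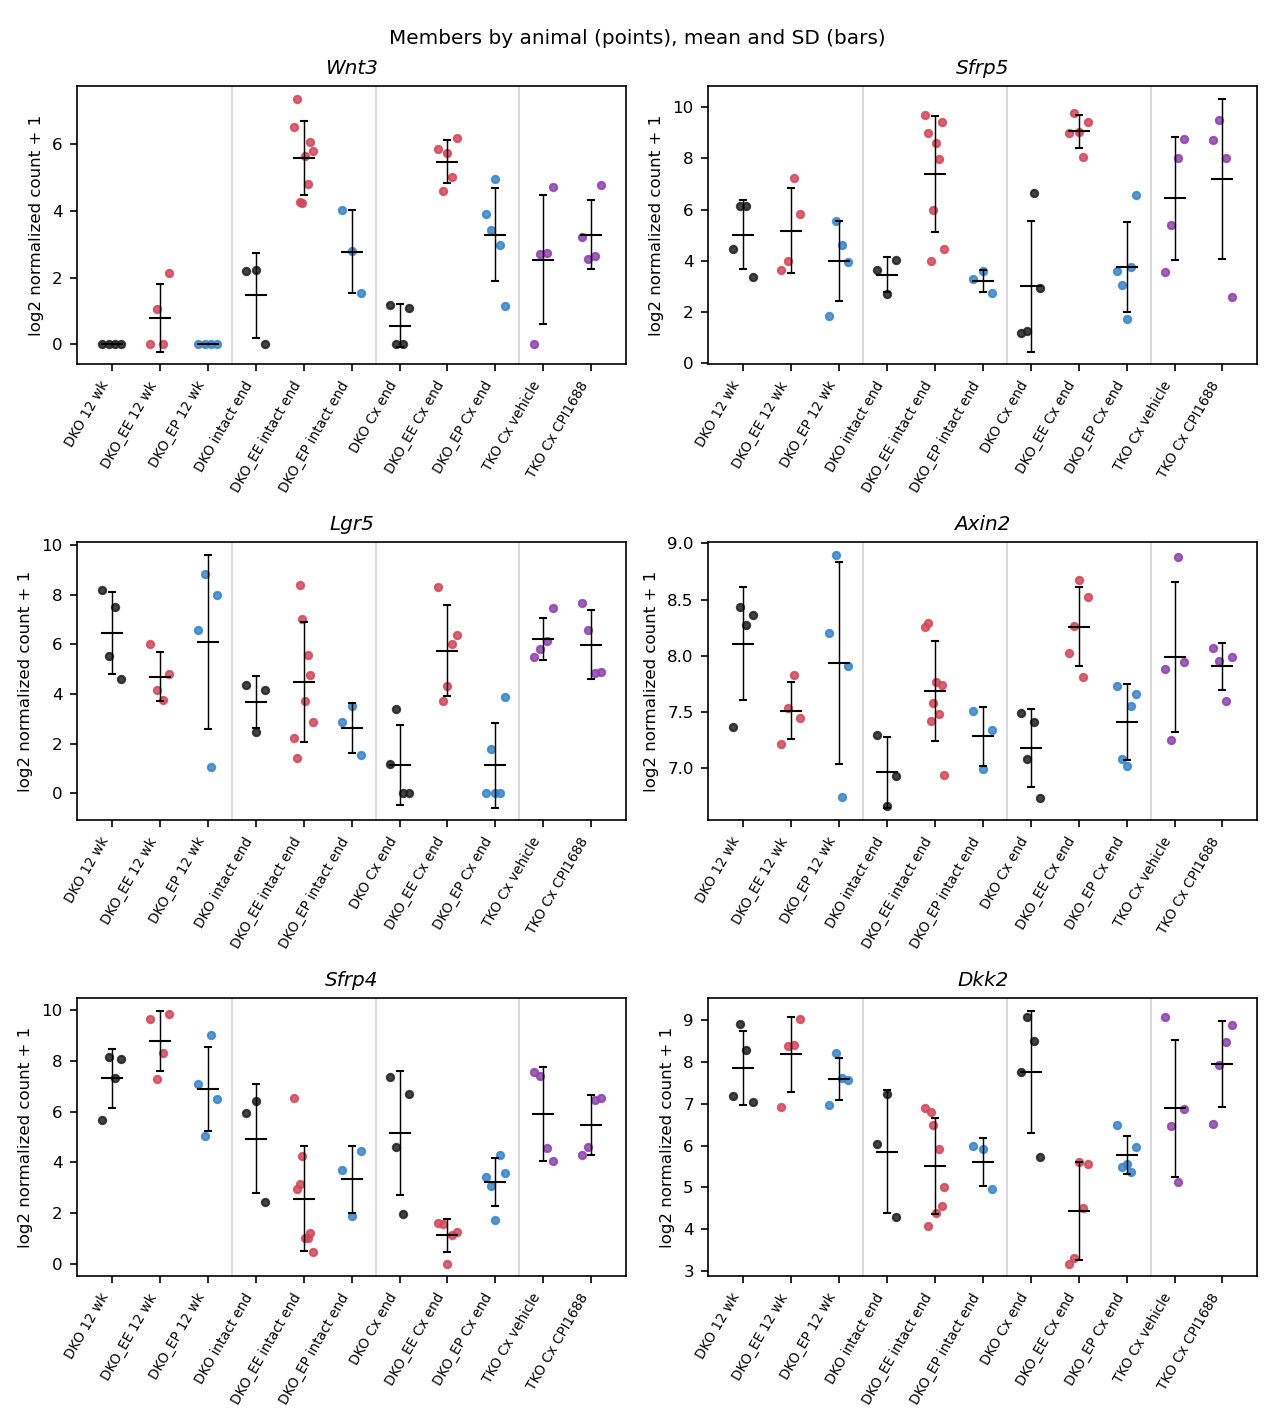
Log2 level of Wnt3, Sfrp5, Lgr5, Axin2, Sfrp4 and Dkk2 in every animal (points) of the 11 groups, with the group mean and SD. Wnt3 is at 0 in all DKO and DKO_EP animals at 12 weeks and between 4.23 and 7.36 in the intact endstage DKO_EE animals.

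At intact endstage, 1 of 51 Wnt genes differed between DKO_EE and DKO, beside 1.66% of all genes (1.12% higher and 0.541% lower). This was Wnt3, at 2.19, 2.22 and 0 in DKO and 4.23 to 7.36 in DKO_EE (4.11, SE 0.74, adjusted p = 0.0147, limma). The call was lost without intact DKO animal 3 and with age as a covariate. Wnt3 was thus called higher in DKO_EE at both endstages, as were 0.346% of the 16479 genes in both fits. Sfrp5 was 3.93 higher (adjusted p = 0.0949, limma), with DKO at 3.65, 2.70 and 4.02 and DKO_EE from 3.97 over a median of 8.29 to 9.69. Axin2 was 0.72 higher (adjusted p = 0.176) and Lgr5 0.82 higher (adjusted p = 0.515). Sfrp2 was at -3.47 (adjusted p = 0.116) and Wnt5a at -2.21 (adjusted p = 0.139). Ror2 (1.32) and Daam1 (0.57) were the 2 of 69 other pathway genes called higher, as at castrated endstage. DKO_EE against DKO_EP gave no called Wnt gene by limma beside 1.63% of all genes, and 0 by limma-voom. There 10 of the 51 were at an unadjusted p under 0.05 by limma, beside 2537 of all 16640 genes. Wnt3 (2.80, adjusted p = 0.0685, limma) and Sfrp5 (4.19, adjusted p = 0.0701) did not overlap between these groups. DKO_EP against DKO gave no called Wnt gene by limma beside 0% of all genes, and 0 by limma-voom. Here 2 of the 51 were at an unadjusted p under 0.05 by limma, beside 965 of all 16640 genes. Lars2 reads were 14.2% to 21.6% in the intact DKO_EP libraries and 0.0099% to 0.0258% in the intact DKO ones. Genotype and this library difference cannot be told apart there.

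At 12 weeks no Wnt gene was called by limma in DKO_EE or in DKO_EP against DKO, nor was any gene of the table (0%). At an unadjusted p under 0.05, 3 of 51 differed in DKO_EE (Wnt9a, Sfrp1 and Wif1) and 0 in DKO_EP, and limma-voom called 0 in both. Of all 16626 genes, 796 in DKO_EE and 449 in DKO_EP were at that unadjusted threshold by limma. Wnt7b, for example, differed by 0.01 in DKO_EE with a 95% interval of -0.35 to 0.38, and Lgr5 by -1.76 with an interval of -4.92 to 1.39. The 2 intervals show how unequal the precision was. No Wnt gene passed the test of a DKO_EE or DKO_EP effect that differed between castrated and intact endstage by limma. Of all genes 0.0119% and 0.0238% did, and limma-voom called 0 of the 51. At an unadjusted p under 0.05 by limma were 8 and 1 of the 51, beside 1638 and 879 of all 16772 genes. For Lgr5 the DKO_EE effect was 3.77 larger in castrated tumours (95% interval 0.23 to 7.32, adjusted p = 0.489, limma).

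In castrated TKO mice, CPI1688 against vehicle gave no called Wnt gene by limma beside 0% of all genes, and 0 by limma-voom. At an unadjusted p under 0.05 by limma were 337 of all 16512 genes and 3 of the 51. Lef1 was at 5.97, 2.92, 1.71 and 4.90 with vehicle and at 7.30, 6.93, 6.80 and 4.76 with CPI1688 (2.57, 95% interval 0.28 to 4.87, adjusted p = 1, limma). Fzd5 (-0.65) and Lgr4 (-0.85) were the other 2, and all 3 overlapped between the groups. Wnt3 was at 0, 2.70, 2.74 and 4.71 with vehicle and 3.20, 2.55, 2.63 and 4.76 with CPI1688 (0.75, 95% interval -1.55 to 3.05). Sfrp5 was at 3.56, 5.41, 8.02 and 8.75 with vehicle and 8.70, 9.50, 8.01 and 2.58 with CPI1688. Both TKO groups spread widely for Sfrp5 and overlapped. TKO vehicle against castrated DKO gave no called Wnt gene by limma beside 0.566% of all genes, and 0 by limma-voom. Here 9 of the 51 were at an unadjusted p under 0.05 by limma, beside 1671 of all 16772 genes. Lgr5 was at 5.50, 5.80, 6.12 and 7.45 in TKO, above every castrated DKO animal (5.07, SE 1.30, adjusted p = 0.0594, limma), and Lgr6 was 2.94 higher (adjusted p = 0.108, limma). These TKO animals were 15 to 19 weeks old and the DKO animals 39 to 99 weeks, so model and age cannot be told apart. Without TKO vehicle animal 1, 3 Wnt genes were called, and without castrated DKO animal 2, 2.

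The 6 intact endstage animals with 2 libraries show how far Wnt levels differ between the libraries of an animal. Their titles carry the piece codes AP, DP or LP, not spelled out in the labels. Among genes with at least 20 reads, the median absolute log2 difference between the libraries of an animal was 0.548 to 0.897 for the 19 to 25 Wnt genes and 0.209 to 0.343 for all genes. A difference over 1 was seen in 21.1% to 41.7% of the Wnt genes and 6.45% to 14.5% of all genes. These shares are not matched for expression level. The libraries of DKO_EE animals 6 and 8 also differed in Lars2 reads. These were 18.7% in DP and 0.53% in AP of animal 6, and 0.0085% in DP-LP and 18.95% in AP of animal 8. Piece and this library difference cannot be told apart in those animals. In DKO_EE animal 5, Wnt4 was at 1.44 in DP and 7.16 in AP. In DKO_EE animal 8, Lef1 was at 0 in DP-LP and 8.07 in AP, while Sfrp5 was at 7.48 and 1.44. In DKO_EP animal 1, Sfrp4 was at 0 in AP and 7.41 in LP-DP and Sfrp1 at 5.29 and 9.45, and the fibroblast sum was 12.6 and 14.9. The Sfrp4 gap between those libraries of DKO_EP animal 1 was larger than its difference between castrated DKO_EE and DKO tumours.

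Over the 16 comparisons that are not interactions, 39 of the 51 Wnt genes (76.5%) were called at least once, beside 73% of all genes. The 12 that were called in none were Wnt7a, Wnt9b, Wnt10b, Wnt11, Wnt16, Porcn, Fzd9, Fzd10, Notum, Rspo2, Axin1 and Lef1. Of the 111 called values, none changed direction under any alternative processing tried.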

How the data were processed

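The deposited table holds log2 of a normalized count plus 1 for 16772 genes, as the authors' values show, and per the submitters' processing notes STAR, RSEM, DESeq2, limma and FastQC were used on GRCm38 (mm10), with versions not given. Of its 56 columns, 2 matched no sample and were not used. The values, with the logarithm undone, were whole multiples of a step per library (100.0% within 0.05 of a read), which gave the reads. Libraries of the same animal (6 animals with 2) were averaged, and the animal was the replicate. Whether animals shared a litter or batch is not given in the sources used here.

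Groups were compared with limma 3.58.1 in R 4.3.3 (lmFit, contrasts.fit, eBayes with trend), adjusting p by Benjamini-Hochberg over all genes with any spread. Genotypes were fitted within a setting, and settings in a joint fit of the 11 groups. Intervals of differences are 95% limma intervals. The fit was tested on simulated data. Counting intervals are exact for 2 read totals and cover counting error only.

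The Wnt genes and the lists were chosen with earlier results of these data known. Called genes were named in each comparison up to 25, with values per animal for up to 10 with the smallest adjusted p. A fixed set of feedback targets and ligands was always described, and up to 4 genes per direction of the other pathway and target lists were named. Alternatives were an offset of 10, leaving out the lowest 25% of genes, quantile normalization, other groups in the fit, age or identifier letters as a covariate, the first library of each animal, limits on Lars2, Ttn and seminal vesicle reads, limma-voom on the recovered reads, and leaving out each animal. Positions are from GENCODE M21 on GRCm38. Figures used Python 3.11.15 with matplotlib 3.10.9.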

Additional observations from a re-analysis of the deposited data

Results flagged for a closer look

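Among 189 tests of a single high or low animal in groups of 4 to 10 animals, over 21 Wnt genes, 11 values were marked. Chance marks about 1 in 20 such groups, so the number marked was near that from chance alone. Values are log2 levels. In 12-week DKO prostates, animal 2 was high for Rspo3 at 7.56 (others 6.21 to 6.33), animal 1 was low for Axin2 at 7.37 (others 8.28 to 8.43), and animal 3 was low for Tcf7 at 5.25 (others 5.79 to 5.87). In 12-week DKO_EP prostates, animal 3 was high for Fzd1 at 10.58 (others 8.95 to 9.17). In castrated DKO tumours, animal 3 was low for Sfrp2 at 1.28 (others 5.45 to 5.54) and for Rspo3 at 1.28 (others 5.27 to 5.70), and animal 2 was high for Lgr4 at 11.81 (others 9.70 to 9.92). In castrated DKO_EE tumours, animal 3 was low for Sfrp4 at 0.0 (others 1.14 to 1.59), where the whole group was near the floor of the counts, with a mean of 1.12. In castrated TKO mice given vehicle, animal 1 was high for Wnt11 at 4.31 (others 2.10 to 2.47) and animal 3 for Notum at 5.09 (others 2.53 to 2.70). In TKO mice given CPI1688, animal 4 was low for Znrf3 at 7.71 (others 9.20 to 9.48).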

How the results depend on the processing

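The 111 called values of single Wnt genes were recomputed under 1854 alternatives, of which 1664 kept the call, 190 lost it and 0 reversed the direction. Of the lost calls, 122 came from leaving out an animal, 12 from the limit on Ttn, 10 from fitting only the 2 groups compared, and 9 each from age and from limma-voom. The causes were not tested. The rest of the text gives numbers of called Wnt genes.

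With age as a covariate, 0 in place of 1 were called for DKO_EE against DKO at intact endstage, 4 in place of 11 for the same comparison at castrated endstage, and 1 in place of 2 for DKO_EE against DKO_EP at castrated endstage. Leaving out the lowest 25% of genes gave 6 in place of 11 and 1 in place of 2 in the last 2 comparisons. The missing genes were themselves left out by this limit. They were Wnt2, Wnt3, Sfrp4, Lgr5 and Rspo3 against DKO, and Lgr5 against DKO_EP. By limma-voom, 1 in place of 2 were called for DKO_EE against DKO_EP at castrated endstage and 1 in place of 3 for castrated against intact DKO_EP. Fitting all 11 groups gave 1 in place of 0 for DKO_EE against DKO_EP at intact endstage, only the 2 groups compared gave 2 in place of 4 for castrated against intact DKO, and an offset of 10 gave 1 in place of 0 for TKO vehicle against castrated DKO.

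Leaving out each animal in turn gave 0 to 2 for DKO_EE against DKO and 0 to 3 for DKO_EE against DKO_EP at intact endstage. At castrated endstage it gave 6 to 17 for DKO_EE against DKO (6 without DKO animal 1 or 4, 7 without DKO_EE animal 5, 17 without DKO animal 3) and 0 to 2 for DKO_EE against DKO_EP. From 12 weeks to intact endstage it gave 16 to 24 in DKO (16 without intact animal 3), 29 to 33 in DKO_EE and 20 to 29 in DKO_EP (20 without intact animal 2). For castrated against intact endstage it gave 2 to 6 in DKO (2 without intact animal 3), 2 to 6 in DKO_EE (2 without castrated animal 4) and 1 to 3 in DKO_EP (1 without intact animal 3). For TKO vehicle against castrated DKO it gave 0 to 3.

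Identifier letters could not be fitted at castrated endstage. The limit on Lars2 left no intact DKO_EP library, so comparisons with intact endstage DKO_EP could not be tried under it. The limit on seminal vesicle reads and leaving out each intact DKO_EE animal were chosen after seeing the data. No paired analysis was possible because the groups share no animals in the labels. Depth limits the genes with few reads, such as Wnt2, Wnt3, Wnt6 and Wnt10a, and groups of 3 animals limit the intact DKO and DKO_EP comparisons.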
